A study of Mus musculus with 9 samples.

Results

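The transcripts described here are those of 10 genes of the TREM and CD300 receptor families and their signalling adaptors, namely Trem1, Trem2, Trem3, Treml4, Tyrobp, Hcst, Cd300a, Cd300lb, Cd300lf and Cd300ld. The members were chosen by gene symbol, and all 10 are among the 18303 genes listed in the deposited table of counts. RNA was sequenced from cells of wounded skin, sorted from mice of the C57BL/6J wild-type background as CD45+CD11b+F4/80+ (a gate for macrophages, F4/80 being their surface antigen). The 5 day 14 libraries came from cells taken 14 days after injury and the 4 day 4 libraries from cells taken 4 days after injury. Cells of both days were untreated and went directly from the sort to RNA extraction, and the age and sex of the mice and the number of mice per library are not given in the labels. The study set late against early wound macrophages.

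Total counts per library ran from 17982630 to 50445159 at day 14 and from 26479011 to 57809914 at day 4. Genes of the sort and of macrophages were detected in every library but did not all stay level. Of 8 such markers, Ptprc and Emr1 (the F4/80 gene) rose, Fcgr1, Itgam, Cd68 and Mertk fell, and Csf1r and Lyz2 did not pass. Fcgr1, a high-affinity Fc receptor gene, averaged 135 CPM at day 14 and 290 CPM at day 4, and the part of these markers in the changes of the 10 genes was not tested. Csf1r, the receptor for the growth factor that macrophages depend on, ranged over 1830 to 2110 CPM in day 14 libraries and 1740 to 2170 CPM in day 4 libraries. CPM is the count of a gene relative to its library's total, after TMM scaling between libraries. The counts of day 14 replicate 5 stop within chromosome 9, so genes beyond that point are given here from the 8 other libraries. None of the 10 genes lies there. Day 14 replicate 3 and day 4 replicate 1 stood apart from the other libraries of their day in neutrophil marker transcripts, as described below, and results that rest on them are given with and without them. Whether each library is a different mouse is not stated, and the p-values cover only the variation among these libraries, part of which could be technical. In bulk RNA, fewer cells of a type and less RNA per cell cannot be told apart.

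TREM and CD300 proteins are cell-surface receptors of myeloid cells with a single immunoglobulin-like domain. Activating members have no signalling motif of their own and pair with a small adaptor in the membrane: DAP12 (encoded by Tyrobp) and the Fc receptor gamma chain (Fcer1g) carry an immunoreceptor tyrosine-based activation motif that recruits the kinase SYK, while DAP10 (Hcst) carries a motif that recruits phosphatidylinositol 3-kinase. Inhibitory members carry inhibitory tyrosine motifs that recruit phosphatases such as SHP-1. TREM2 binds lipids and apolipoproteins and sustains survival and uptake of debris in tissue macrophages, TREM1 amplifies inflammatory responses of neutrophils and monocytes, and several CD300 receptors bind phospholipids exposed on dying cells.

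The genes lie in 3 clusters on the mouse build GRCm38 (mm10). Trem1, Trem3, Treml4 and Trem2 lie within 119.6 kb of chromosome 17 (48232713 to 48352276). Cd300a, Cd300lb, Cd300ld and Cd300lf lie within 246.2 kb of chromosome 11 (114889152 to 115135372). Tyrobp and Hcst are neighbours on chromosome 7, 129 bases apart (30413782 to 30417582 and 30417712 to 30419854). RefSeq promoter sequences (GRCm38.p6) were found for 8 of the 10, all but Trem3 and Tyrobp. The 250 bases before the start are shown for Trem2 and Cd300lb, the most abundant receptors that changed in opposite directions, and for Trem1 and Cd300lf, whose levels moved together across libraries. They are Trem2 at chr17:48346151-48346400 (plus strand), Cd300lb at chr11:114934372-114934621 (minus strand), Trem1 at chr17:48232489-48232738 (plus strand) and Cd300lf at chr11:115133993-115134242 (minus strand), each written 5′ to 3′ on the strand of the gene. The RefSeq starts used for Trem1 and Cd300lf, and for Treml4 and Cd300a among those not shown, lie within the span of the gene. The stretch just after the start used for Trem1 was not found in the gene's GENCODE transcripts. Capitals mark GAGGAA, the core bound by the macrophage factor PU.1, and TGANTCA, a loose pattern for AP-1 sites with any base (N) at its centre, on either strand.
Trem2: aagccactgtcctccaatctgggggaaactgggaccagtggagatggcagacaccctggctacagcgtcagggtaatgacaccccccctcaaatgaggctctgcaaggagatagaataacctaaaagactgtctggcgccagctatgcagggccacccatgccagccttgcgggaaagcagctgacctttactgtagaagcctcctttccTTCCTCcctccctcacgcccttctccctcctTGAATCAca
Cd300lb: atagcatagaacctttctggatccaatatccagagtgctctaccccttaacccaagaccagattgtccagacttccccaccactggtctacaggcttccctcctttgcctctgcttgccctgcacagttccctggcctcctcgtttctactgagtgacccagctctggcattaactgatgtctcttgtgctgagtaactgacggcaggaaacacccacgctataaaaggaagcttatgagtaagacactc
Trem1: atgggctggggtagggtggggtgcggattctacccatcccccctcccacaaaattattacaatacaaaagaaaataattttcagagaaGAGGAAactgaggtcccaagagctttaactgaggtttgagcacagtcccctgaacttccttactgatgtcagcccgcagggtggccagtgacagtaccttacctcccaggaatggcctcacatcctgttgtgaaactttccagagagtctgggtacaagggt
Cd300lf: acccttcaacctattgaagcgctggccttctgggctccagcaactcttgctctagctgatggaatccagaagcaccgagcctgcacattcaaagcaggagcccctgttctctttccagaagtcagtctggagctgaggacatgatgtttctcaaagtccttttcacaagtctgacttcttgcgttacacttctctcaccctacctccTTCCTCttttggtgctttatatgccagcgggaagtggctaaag
In these 250 bases, GAGGAA was present in 6 of the 8 promoters, all but those of Cd300lb and Hcst, and in 23.3% of 32851 promoters of the same length. Of the promoters with GAGGAA, those of Cd300a and Cd300lf lie wholly within the span of the gene and those of Trem1 and Treml4 partly. The counts therefore do not all describe sequence upstream of the gene. TGANTCA was present in 1 of the 8, that of Trem2 (as TGAATCA), and in 6.75% of all promoters. Binding of AP-1 factors to it was not tested. The 2 marked stretches of Trem2 begin 40 and 9 bases before the start and do not overlap.

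Day 14 and day 4 differed for 4 of the 10 genes. Cd300lb rose, and Trem2, Treml4 and Tyrobp fell, with a Benjamini-Hochberg adjusted p under 0.05 over all genes in edgeR's quasi-likelihood test. The same test called 25.5% of the 13363 genes tested (12.8% higher and 12.7% lower). This share, and those from other fits that hold day 14 replicate 5, include genes beyond its break, where it has no counts. Without the genes beyond the break 3816 of 12300 were called, a larger share, and the same 4 members. The 4 of 10, and the counts of calls in the other gene lists, are read beside that share. Of the calls over all genes tested 50.3% were higher, and 65.5% were with upper-quartile scaling. The CPM of the days did not overlap for 3 of the 10 genes (Cd300lb, Trem2 and Treml4), against 24.4% of all genes tested, those beyond the break included. All 10 passed the filter on low counts. Without day 14 replicate 3, 7 of the 10 were called (1 higher and 6 lower), with 29.5% of all genes, the added ones being Trem1, Trem3 and Cd300lf. Without both day 14 replicate 3 and day 4 replicate 1, 8 were called (2 higher and 6 lower), with 25.2% of all genes, and Cd300a was the added one that rose. This pair was left out after the data were seen. Day 14 replicate 3 was the highest of its day for Trem1, Trem3 and Cd300lf and the lowest for Cd300a. Leaving it out moves these genes toward a call by construction, so the added calls are not separate support.

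**Figure D1:**
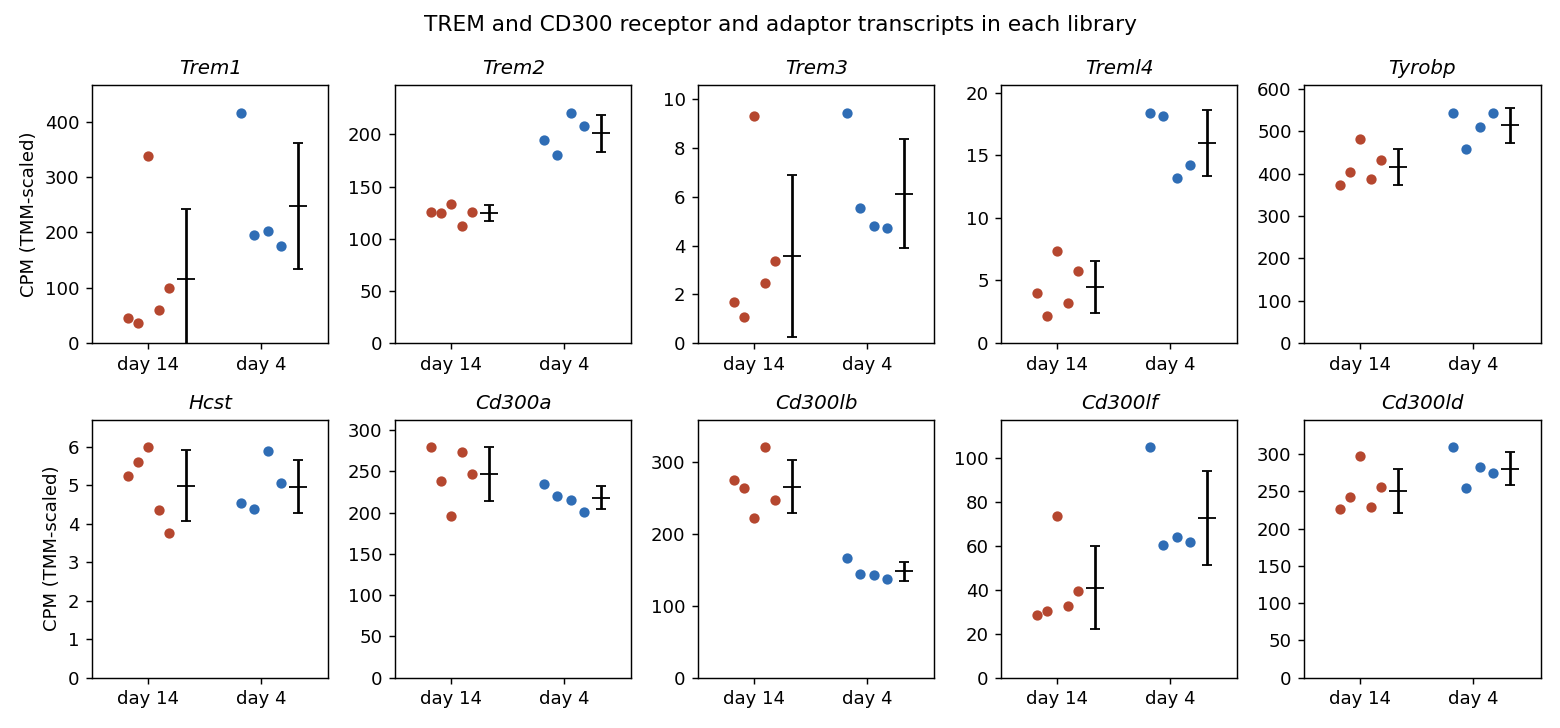
CPM of the 10 transcripts in each library (points, day 14 left of day 4), with the mean and SD beside each day (n = 5 and 4; every axis starts at 0, which cuts the lower SD bar of Trem1 at day 14). The days are apart for Trem2, Treml4 and Cd300lb, and 1 library of each day stands high for Trem1, Trem3 and Cd300lf.

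**Figure D2:**
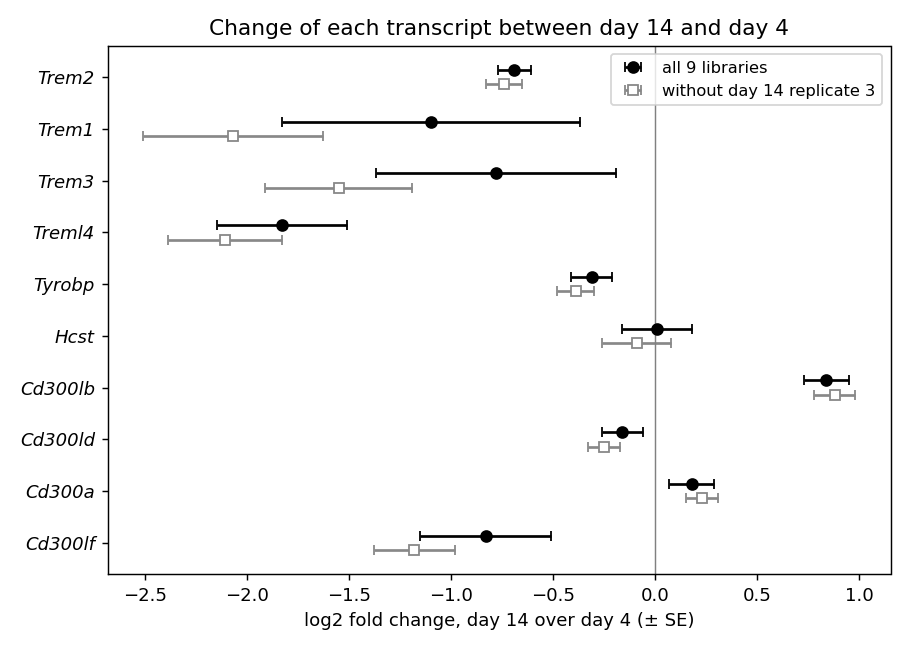
Log2 fold change of each transcript, day 14 over day 4, with its standard error from edgeR, for all 9 libraries (filled circles) and without day 14 replicate 3 (open squares). Trem1, Trem3 and Cd300lf move furthest between the fits, to -2.07, -1.55 and -1.18, while Trem2 and Cd300lb stay at -0.74 and 0.88.

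Among the adaptors, Tyrobp was slightly lower at day 14 and Hcst gave no call. Tyrobp, which encodes DAP12, was at 373, 404, 482, 388 and 431 CPM in the day 14 libraries, against 544, 457, 511 and 544 CPM in the day 4 libraries. The days overlapped, since day 14 replicate 3 (482 CPM) lay above day 4 replicate 2 (457 CPM). Tyrobp fell 1.24-fold (log2 fold change -0.31 ± 0.10 SE, adjusted p = 0.0397). This call was lost in 10 of 21 alternatives, among them upper-quartile scaling (adjusted p = 0.149) and leaving out day 4 replicate 1 (adjusted p = 0.0904), and in no alternative did the direction turn (log2 fold changes from -0.39 to -0.24). Without day 14 replicate 3 Tyrobp kept its call (log2 fold change -0.39 ± 0.09 SE, adjusted p = 0.0112). The call also held with both of these libraries left out (adjusted p = 0.0258).

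Hcst, which encodes DAP10, the partner of the NKG2D receptor, was low in every library. It was at 5.25, 5.61, 5.99, 4.37 and 3.75 CPM at day 14, against 4.53, 4.39, 5.90 and 5.05 CPM at day 4. Its days overlapped throughout, and the log2 fold change was 0.01 ± 0.17 SE (adjusted p = 0.983), with a value at or below 0 in 10 of 21 alternatives. Between 74 and 303 counts per library stand behind these values. Klrk1, which encodes NKG2D, was at 36.7, 40.0, 30.9, 44.8 and 35 CPM at day 14, against 7.28, 13.3, 8.62 and 7.02 CPM at day 4. Every day 14 library lay above every day 4 library, and Klrk1 rose 4.14-fold (adjusted p = 0.000107). Of the 11 T and NK cell markers in the table, Cd4 rose, at 47.3 to 64.8 CPM in day 14 libraries and 30.8 to 34.4 CPM in day 4 libraries, and made up nearly all of the list's sum of 48 to 66.8 CPM at day 14 and 31.7 to 35.5 CPM at day 4. The 10 others were at most 1.78 CPM in any library, and Cd3e, Nkg7 and Ncr1 at most 0.0841 CPM. The part of these markers in the rise of Klrk1 was not tested.

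Of the TREM receptors, Trem2 and Treml4 were lower at day 14 and set the days apart, whereas the days overlapped for Trem1 and Trem3. Trem2 was at 126, 125, 133, 112 and 126 CPM in the day 14 libraries, against 195, 180, 221 and 208 CPM in the day 4 libraries. The days did not overlap, and the highest library of day 14 was at 133 CPM where the lowest of day 4 was at 180 CPM. Trem2 fell 1.61-fold (log2 fold change -0.69 ± 0.08 SE, adjusted p = 0.000278) and kept its call in 21 of 21 alternatives, with log2 fold changes from -0.76 to -0.61. Its spread within a day was small, the highest library being 1.18 times the lowest at day 14 and 1.23 times at day 4.

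Treml4 encodes a receptor that binds dead cells in the mouse. It was at 4.00, 2.15, 7.36, 3.18 and 5.73 CPM at day 14, against 18.4, 18.1, 13.2 and 14.2 CPM at day 4. All day 14 libraries lay below all day 4 libraries. The highest library was 3.43 times the lowest at day 14 and 1.39 times at day 4. Day 14 replicate 3 and day 4 replicate 1 were the highest of their days. Treml4 fell 3.56-fold (log2 fold change -1.83 ± 0.32 SE, adjusted p = 0.00292), the largest change of the 10 genes with all 9 libraries. It missed the threshold in the 6 libraries with the fewest counts (3.99-fold lower, adjusted p = 0.0572), and passed in the 20 other alternatives. Without day 14 replicate 3 it fell 4.31-fold (adjusted p = 0.00089). The fall was 3.39-fold without day 4 replicate 1 (adjusted p = 0.0103) and 4.1-fold without both (adjusted p = 0.00328).

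Trem1 was at 45.1, 35.2, 339, 59.3 and 99.6 CPM in the day 14 libraries, against 417, 195, 202 and 176 CPM in the day 4 libraries. Day 14 replicate 3 was the exception at its day, at 5.67 times the mean of the others, and day 4 replicate 1 was at 2.19 times the mean of the others of day 4. The days overlapped through that day 14 library alone, the others of day 14 ending at 99.6 CPM. With all 9 libraries Trem1 did not pass (log2 fold change -1.10 ± 0.73 SE, adjusted p = 0.318). Without day 14 replicate 3 it fell 4.20-fold (log2 fold change -2.07 ± 0.44 SE, adjusted p = 0.0142), and without both outlying libraries 3.24-fold (adjusted p = 0.0204). Without day 4 replicate 1 alone the value moved the other way, to -0.72 ± 0.80 SE (adjusted p = 0.582). Leaving out day 14 replicate 3, the highest of its day, deepens the fall of Trem1 by construction. The calls without it are therefore not separate support for a fall.

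Trem3, an activating receptor gene of the mouse, followed Trem1 at a lower level. It was at 1.66, 1.07, 9.31, 2.48 and 3.35 CPM at day 14, against 9.46, 5.56, 4.81 and 4.71 CPM at day 4. The same libraries were highest, day 14 replicate 3 and day 4 replicate 1. Its log2 fold change was -0.78 ± 0.59 SE with all libraries (adjusted p = 0.376) and -1.55 ± 0.36 SE without day 14 replicate 3 (adjusted p = 0.0127). It was -0.50 ± 0.64 SE without day 4 replicate 1 alone (adjusted p = 0.646) and -1.27 ± 0.34 SE without both (adjusted p = 0.0285).

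Neutrophil marker transcripts were also highest in these libraries. Their summed CPM, for genes before the break, was 2170 in day 14 replicate 3 and 336 to 979 in the other day 14 libraries, against a range of 1140 to 2530 at day 4. S100a9, a calcium-binding protein abundant in neutrophils and monocytes, was at 821 CPM in day 14 replicate 3 and 67.9 to 364 CPM in the others of day 14, and at 907 CPM in day 4 replicate 1 and 263 to 325 CPM in the others of day 4. Of the 11 neutrophil markers listed in the table, 7 were highest in both libraries (S100a8, S100a9, Mmp9, Cxcr2, Csf3r, Il1r2 and Mmp8), as were 5 of the 10 receptor and adaptor genes (Trem1, Trem3, Treml4, Cd300lf and Cd300ld) and 7.58% of all genes tested. Not all neutrophil markers were highest in both: the granule genes Camp and Ngp were at or near 0 (at most 0.574 and 3.28 CPM, both in day 14 replicate 1), and Retnlg was at 32.7 CPM in day 14 replicate 3, within the 24.8 to 40.7 CPM of the others, but at 47.3 CPM in day 4 replicate 1, above the 21.6 to 28.1 CPM of the others of day 4. Day 14 replicate 5 came next after replicate 3 of its day for S100a9 (364 CPM), Cxcr2 (78.9 CPM) and Trem1 (99.6 CPM). It was the lowest of its day for Retnlg (24.8 CPM). Between the days, 1 of 9 tested neutrophil markers fell (Mmp9), 0 rose and 8 did not pass. Among the monocyte markers, 5 of 9 fell and 2 rose. Hdc, the histamine-forming enzyme gene, which was listed as a mast cell marker, was also highest there, at 730 CPM in day 14 replicate 3 and 88.4 to 246 CPM in the others of day 14, and at 453 CPM in day 4 replicate 1 and 163 to 207 CPM in the others of day 4. The part of these markers in the levels of Trem1, Trem3 and Cd300lf was not tested.

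**Figure D3:**
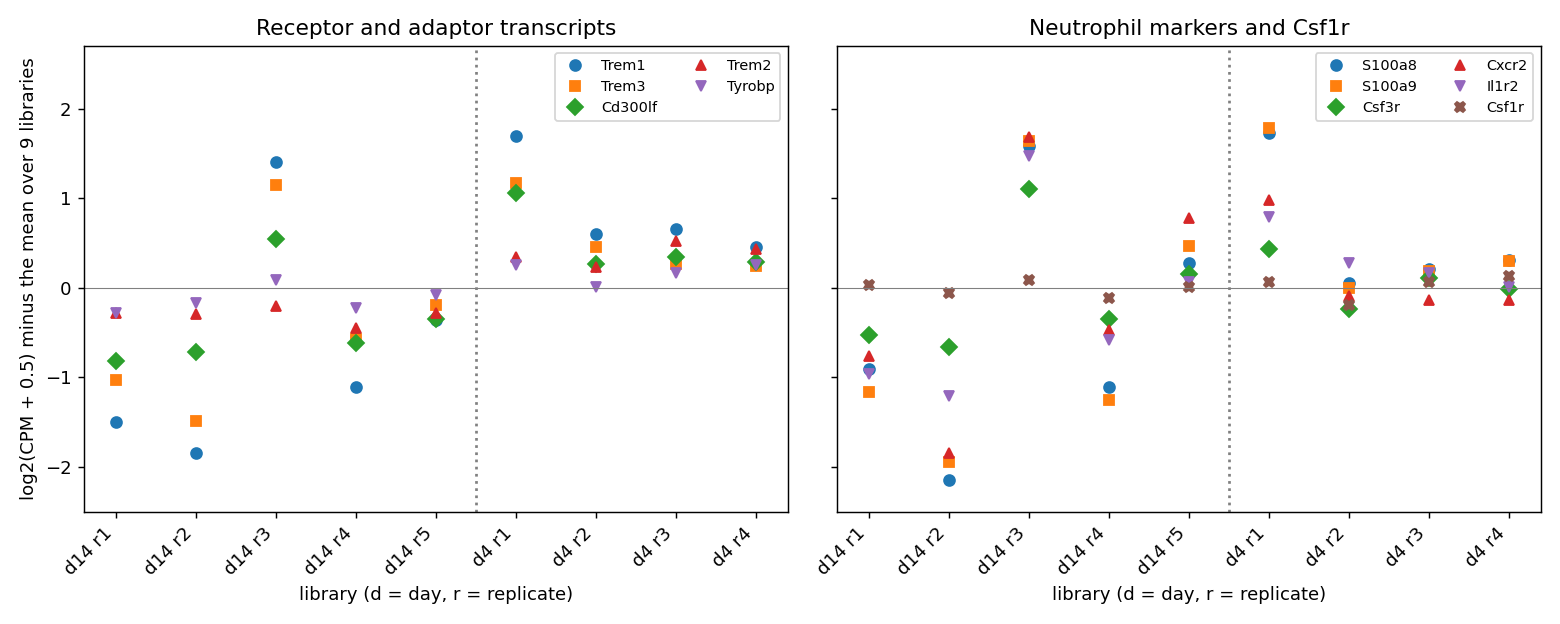
Log2(CPM + 0.5) of each transcript minus its own mean over the 9 libraries, day 14 left of the dotted line and day 4 right of it. Trem1, Trem3 and Cd300lf stand high in day 14 replicate 3 and day 4 replicate 1, as do the neutrophil markers S100a8, S100a9, Csf3r, Cxcr2 and Il1r2, while Csf1r, from 1740 to 2170 CPM, lies near 0 in every library.

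Of the activating CD300 receptors, Cd300lb rose and Cd300ld was not called. Cd300lb encodes a receptor that pairs with DAP12. It was at 276, 264, 222, 321 and 247 CPM in the day 14 libraries, against 167, 144, 143 and 138 CPM in the day 4 libraries. The days did not overlap, and day 14 replicate 3 was the lowest library of its day. Cd300lb rose 1.8-fold (log2 fold change 0.84 ± 0.11 SE, adjusted p = 0.00057), and it kept its call in 21 of 21 alternatives (log2 fold changes from 0.74 to 0.94).

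Cd300ld, whose product pairs with the Fc receptor gamma chain, was at 226, 243, 298, 229 and 256 CPM at day 14, against 309, 255, 283 and 274 CPM at day 4. The days overlapped, with day 14 replicate 3 again the highest of its day. The log2 fold change was -0.16 ± 0.10 SE (adjusted p = 0.258), and -0.25 ± 0.08 SE without that library (adjusted p = 0.0508). Fcer1g, its adaptor, averaged 551 ± 25.0 CPM at day 14 and 604 CPM at day 4 (log2 fold change -0.13 ± 0.08 SE, adjusted p = 0.23).

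The inhibitory receptors of the CD300 family were not called with all 9 libraries. Cd300a, whose product binds phosphatidylserine and phosphatidylethanolamine and recruits phosphatases, was at 279, 238, 196, 273 and 247 CPM at day 14, against 235, 220, 215 and 201 CPM at day 4. Only day 14 replicate 3 lay below all day 4 libraries. The log2 fold change was 0.18 ± 0.11 SE (adjusted p = 0.246). Without both outlying libraries Cd300a passed as higher (log2 fold change 0.26 ± 0.08 SE, adjusted p = 0.0462), the only one of 21 alternatives in which it did.

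Cd300lf, which encodes an inhibitory receptor for ceramide and phosphatidylserine, was at 28.4, 30.4, 73.9, 32.6 and 39.5 CPM in the day 14 libraries, against 105, 60.4, 64.0 and 61.7 CPM in the day 4 libraries. As for Trem1, the overlap rested on day 14 replicate 3, the others of day 14 ending at 39.5 CPM. Its log2 fold change was -0.83 ± 0.32 SE (adjusted p = 0.0947) with all libraries and -1.18 ± 0.20 SE without that one, a 2.26-fold fall (adjusted p = 0.00329). Without both outlying libraries it fell 1.93-fold (adjusted p = 0.00129), and DESeq2 called it with all 9 (adjusted p = 0.0132). Without day 4 replicate 1 alone it did not pass (log2 fold change -0.60 ± 0.32 SE, adjusted p = 0.222). Cd300lf overlaps the gene Rab37, Trem1, Trem3 and Treml4 overlap predicted genes, and Cd300lb overlaps the predicted gene Gm11699. Reads of overlapping genes cannot be told apart by strand in these libraries. Rab37 itself was counted at 0.497 to 0.748 CPM at day 14 and 0.135 to 0.930 CPM at day 4.

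The counts of Cd300a, Cd300ld and Cd300lf were not whole numbers in any of the 9 libraries, and those of Trem2 in 8 of 9 (to within 0.01 of a whole count), so that these values are estimates. The CD300 locus holds several closely similar genes, and how reads shared between them were assigned is not given in the sources used here.

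Ratios within a library, which hardly depend on the scaling between libraries, were compared for 6 pairs by an exact two-sided permutation test, with adjustment over the 6. Trem2 relative to its adaptor gene Tyrobp had log2 ratios of CPM of -1.56, -1.69, -1.85, -1.78 and -1.77 at day 14, against -1.48, -1.34, -1.21 and -1.38 at day 4. The days did not overlap, and the mean ratio was lower at day 14 by a log2 difference of -0.38 (exact permutation p = 0.0159, the smallest that 5 against 4 libraries allow; adjusted p = 0.0476). The activating Cd300lb relative to the inhibitory Cd300a had log2 ratios of -0.01, 0.15, 0.18, 0.23 and 0.00 at day 14, against -0.49, -0.61, -0.59 and -0.54 at day 4. This ratio was higher at day 14 by a log2 difference of 0.67 without overlap (exact permutation p = 0.0159, adjusted p = 0.0476).

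The other 4 ratios did not pass with all libraries. Trem1 relative to Trem2 averaged -0.64 ± 1.24 at day 14 and 0.21 ± 0.61 at day 4 on the log2 scale (SD, exact permutation p = 0.254, adjusted p = 0.254). Cd300ld relative to Cd300lf averaged 2.69 ± 0.40 at day 14 and 1.97 ± 0.29 at day 4 (exact permutation p = 0.0635, adjusted p = 0.0952). Fcer1g relative to Tyrobp averaged 0.41 ± 0.13 at day 14 and 0.23 ± 0.07 at day 4, with the same exact permutation p and adjusted p. Hcst relative to Tyrobp averaged -6.25 ± 0.26 at day 14 and -6.56 ± 0.18 at day 4 (exact permutation p = 0.111, adjusted p = 0.133). Without day 14 replicate 3, 5 of the 6 ratios passed, all but Hcst relative to Tyrobp (exact permutation test, adjusted p = 0.0343 for each of the 5). In each of the 8 other omissions of 1 library 0 ratios passed, with adjusted p from 0.0571 to 0.107 for Trem2 over Tyrobp and for Cd300lb over Cd300a (exact permutation test). The differences for these pairs stayed between -0.42 and -0.33 and between 0.63 and 0.70 over the 9 omissions. With 1 library out the smallest exact permutation p is 0.0286 or 0.0357 before adjustment. After adjustment over the 6, a pair can then pass only if most of the others also reach that minimum. Not passing in these omissions is therefore largely set by the number of libraries. Without day 14 replicate 3 the difference for Trem1 relative to Trem2 was -1.34 on the log2 scale, and that for Cd300ld relative to Cd300lf was 0.88.

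**Figure D4:**
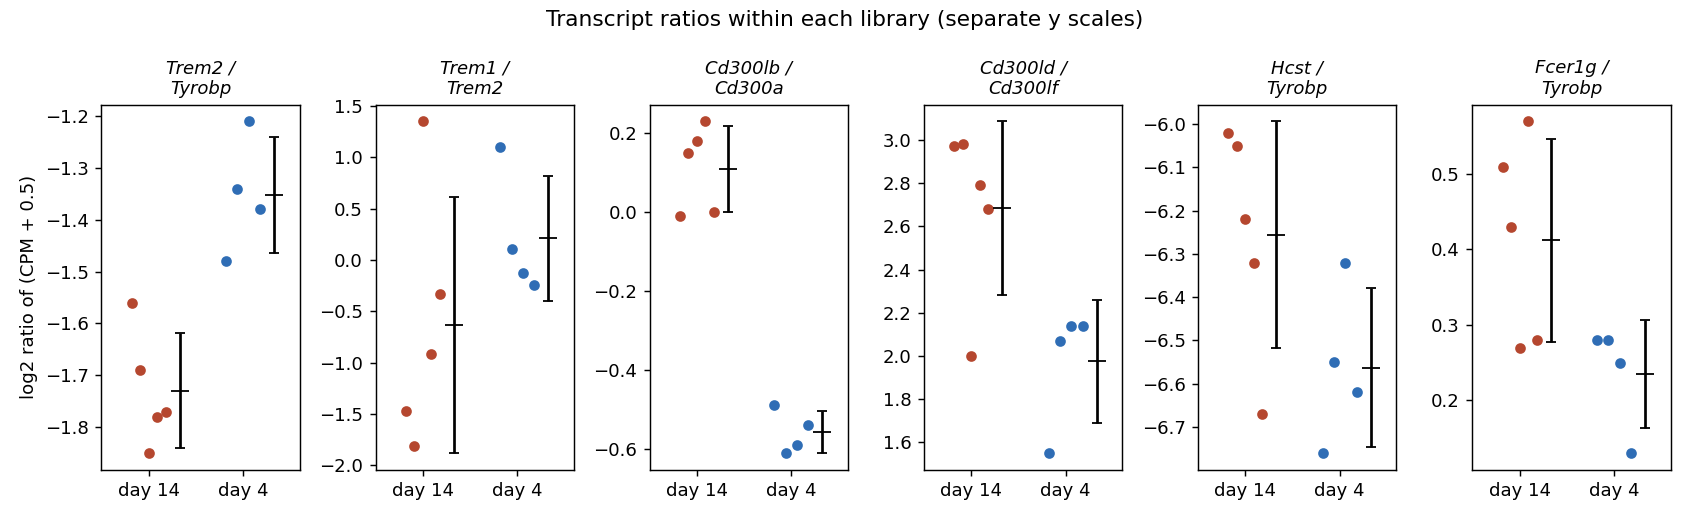
Log2 ratio of CPM + 0.5 for 6 gene pairs within each library (points, day 14 left of day 4), with the mean and SD of each day and a separate axis for each pair. The days do not overlap for Trem2 over Tyrobp, lower at day 14 by 0.38, and for Cd300lb over Cd300a, higher at day 14 by 0.67.

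To set the genes beside each other, CPM was divided by the length of the longest coding transcript in GENCODE M21. Tyrobp was the highest on this scale of level, at 737 ± 76.4 CPM per kb at day 14 and 911 ± 72.9 CPM per kb at day 4 (SD, n = 5 and 4). Trem2 came next, at 114 ± 6.89 CPM per kb at day 14 and 185 ± 16.0 CPM per kb at day 4. At day 4 Trem2 lay above Cd300ld (106 ± 8.54 CPM per kb) in every library, whereas at day 14 its range overlapped that of Cd300ld (94.7 ± 11 CPM per kb), and that of Cd300ld overlapped Cd300lb (92.4 ± 12.8 CPM per kb).

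By their means, Cd300lb and Trem1 held different places on the 2 days. At day 14 the mean of Cd300lb lay above that of Trem1 (38.7 ± 42.6 CPM per kb), with ranges that overlapped through day 14 replicate 3 (Trem1 at 113 and Cd300lb at 77.2 CPM per kb), and at day 4 Trem1 (82.7 ± 38.0 CPM per kb) ranked above Cd300lb (51.4 ± 4.53 CPM per kb). The ranges of Cd300lb and Cd300a did not overlap at day 14 but did at day 4, where Cd300a was at 46.9 ± 3.01 CPM per kb. Hcst, at 11.3 ± 2.07 CPM per kb at day 14 and 11.2 ± 1.54 CPM per kb at day 4, Treml4 and Trem3 were the lowest at both times, and their neighbouring ranges overlapped. These lengths assume that the longest coding transcript is the one expressed, which was not tested.

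**Figure D5:**
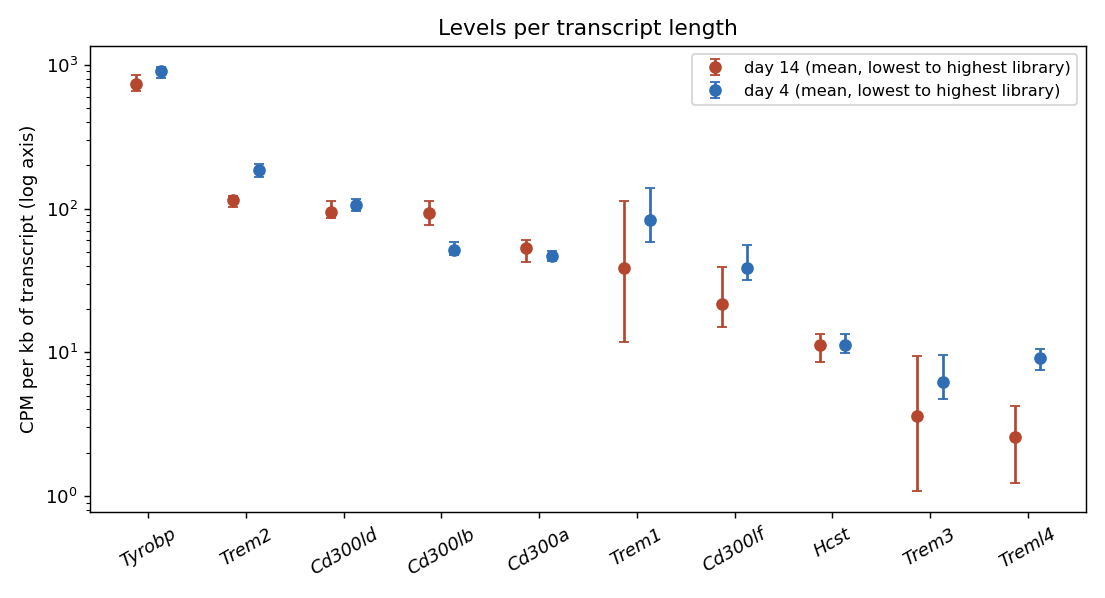
CPM per kb of transcript on a log axis for the 10 genes, day 14 (left point) and day 4 (right point), with bars from the lowest to the highest library. Tyrobp lies above all receptors on both days, at means of 737 and 911, and the bars of Trem1 and Trem3 at day 14 are the longest.

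Other genes of the same families gave 1 rise and 1 fall among 5 tested. Cd300lg, a CD300-like gene known from endothelium, rose 2.26-fold, to 38.4 ± 1.76 CPM at day 14, against 17 CPM at day 4 (adjusted p = 7.43e-05). Treml2, a receptor gene of the TREM cluster, fell 1.89-fold, to 8.94 ± 1.71 CPM at day 14, against 16.9 CPM at day 4 (adjusted p = 0.00167). Cd300lh, the most abundant of the list, averaged 65.3 ± 12.1 CPM at day 14 and 64.4 CPM at day 4 (adjusted p = 0.949). Treml1, a platelet receptor gene, did not pass either, and neither it nor Cd300lh kept its sign under all alternatives. The median log2 fold change of the 5 was 0.02, beside -0.01 over all genes tested.

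Of 11 genes for other adaptors and adaptor-coupled receptors, 4 rose, 1 fell and 6 did not pass, with a median log2 fold change of 0.14. Beside Klrk1, these were Siglech, a DAP12-coupled lectin of plasmacytoid dendritic cells (2.77 ± 0.964 CPM at day 14 and 0.604 CPM at day 4, adjusted p = 0.00241), Cd200r4 (1.70-fold higher, adjusted p = 0.00308) and Cd200r3 (7.24-fold higher, with means of 2.64 CPM in day 14 libraries and 0.400 CPM in day 4 libraries, adjusted p = 0.00875). Sirpb1a fell 1.42-fold (adjusted p = 0.0472). Dendritic cell markers moved in the same libraries, with 7 of 11 higher and 0 lower, and a summed CPM of 716 to 817 at day 14 and 443 to 559 at day 4. Eosinophil markers were higher for 3 of 4 tested, with a summed CPM of 22 to 26.7 at day 14 against 6.8 to 12.6 at day 4 for the genes before the break. Keratinocyte markers were higher for 4 of 5 tested and Langerhans cell markers for 2 of 3, all at low levels, and the mast cell genes Cpa3 and Mcpt4 rose while Kit fell. The part of these markers in the rises was not tested.

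Of 23 tested genes that carry the signal on from the activation motif, 3 rose, 4 fell and 16 did not pass, with a median log2 fold change of 0.03, a share of calls near the 25.5% of all genes. Blnk, an adaptor that links SYK to phospholipase C, rose 2.31-fold, to 132 ± 21.2 CPM at day 14, against 57.3 CPM at day 4 (adjusted p = 0.000155). The Src-family kinase genes Src and Fgr fell 2.47-fold and 1.54-fold (adjusted p = 0.00109 and 0.00772). Syk itself averaged 717 ± 43.0 CPM at day 14 and 660 CPM at day 4 and was not called (adjusted p = 0.361).

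Of 12 receptors outside the CD300 family that were listed here as inhibitory, 6 rose, 4 fell and 2 did not pass, with a median log2 fold change of 0.16. Of all genes tested, 25.5% were called. Whether each listed receptor, Cd33 among them, is inhibitory in these mouse cells was not tested. Cd33, a sialic acid-binding lectin, rose 1.89-fold, to 165 ± 17.1 CPM at day 14, against 87.0 CPM at day 4 (adjusted p = 0.000209). Siglece, a lectin of the same family, rose 2.00-fold (adjusted p = 0.000257), and Cd200r1, the receptor for CD200, rose 2.12-fold (adjusted p = 0.000304). Sirpa, the CD47 receptor and most abundant of the list, fell 1.33-fold, to 755 ± 55.1 CPM at day 14, against 1010 CPM at day 4 (adjusted p = 0.0059). Of the 9 phosphatases and adaptors downstream of such receptors, 1 rose (Dok2, 1.74-fold, adjusted p = 0.0159, and 0.0924 without both outlying libraries), 0 fell and 8 did not pass. The SHP-1 gene Ptpn6 averaged 165 ± 23.5 CPM at day 14 and 207 CPM at day 4 (adjusted p = 0.114).

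Among 8 genes for ligands of TREM receptors and for the proteases that shed them, 2 rose, 0 fell and 6 did not pass. Pglyrp1, a peptidoglycan-binding protein and TREM1 ligand, rose 1.99-fold, to 6.14 ± 2.59 CPM at day 14, against 3.10 CPM at day 4 (adjusted p = 0.0416), and Hmgb1, a nuclear protein released from dying cells, rose 1.39-fold (adjusted p = 0.0473). Both calls were lost under several alternatives, for example with library size as a covariate (adjusted p = 0.127 and 0.0974). Apoe, the apolipoprotein that TREM2 binds, averaged 7480 ± 584 CPM at day 14 and 8000 CPM at day 4 and was not called (adjusted p = 0.44). Of the shedding proteases, Adam17 had an adjusted p of 0.112, and Adam10, beyond the break of day 14 replicate 5, one of 0.263 in the 8 other libraries, in which 28.6% of 13287 genes were called (14.8% higher and 13.8% lower).

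Genes listed here for a link to TREM2 in mouse microglia or lipid-laden macrophages went both ways. Whether each of them, Ctsb and Ctsd among them, depends on TREM2 was not tested. Of 19 tested, 6 fell, 4 rose and 9 did not pass, with a median log2 fold change of -0.30. The lysosomal protease gene Ctsl fell 2.24-fold, to 872 ± 79.0 CPM at day 14, against 1950 CPM at day 4 (adjusted p = 4.75e-05), and Fabp5, a fatty acid-binding protein gene, fell 2.16-fold (adjusted p = 5.48e-05). Itgax, the CD11c integrin gene, rose 1.94-fold, to 184 ± 12.3 CPM at day 14, against 95.1 CPM at day 4 (adjusted p = 8.77e-05). Ctsb, a lysosomal protease gene and the most abundant of the list, fell 1.23-fold (adjusted p = 0.0206), and this call was lost under upper-quartile scaling (adjusted p = 0.0608). Fibroblast markers were lower at day 14 in the same libraries, 8 of 11 with 0 higher, with a summed CPM of 5740 to 9400 at day 14 and 10400 to 21000 at day 4, and their part in these changes was not tested.

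The genes whose pattern over the 9 libraries was nearest to each member were found by the root mean square difference of mean-centred log2 CPM, among 8700 genes with a mean of at least 5 CPM (8701 for Trem3 and Hcst). Trem1 was nearest to Irg1, the itaconate-producing enzyme gene now called Acod1 (0.234 on the log2 scale), followed by Slfn4 (0.297) and the protease inhibitor gene Slpi (0.309). The genes nearest to Trem3 included the formyl peptide receptor gene Fpr2 (0.224) and the decoy receptor gene Il1r2 (0.235). Trem2 was nearest to Ly6e (0.055), Stard3 (0.062) and the amino acid transporter gene Slc43a2 (0.069), and Tyrobp to Ppm1f (0.035). Cd300lb was nearest to Sept11 (0.070), to Gp49a, a gene of the leukocyte immunoglobulin-like receptor family (0.073), and to Marcks (0.088). Cd300lf was nearest to Pla1a (0.136), Gsr (0.156) and Isg15 (0.174). These distances describe likeness over libraries that share their 2 days and their depth, and carry no test.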

How the data were processed

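The values used are estimated counts per gene symbol for 9 libraries, as the authors deposited them, not normalized, in which a mean of 17.2% of values per library are not whole numbers. The submitters' processing notes name the build mm10 and the tools DESeq2, Partek 6.6, SAMtools 1.4, HISAT2 2.1.0 and CASAVA 1.8, with roles not given in the sources used here. Per the labels' protocols, the library kit was the Illumina TruSeq RNA kit v2, which does not mark strand. A deposited table of normalized values was not used here. Columns were matched to samples by the numbers in their headers.

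Counts were rounded, filtered with filterByExpr and scaled with TMM, and days were compared with edgeR 4.0.16 (robust quasi-likelihood test, two-sided, Benjamini-Hochberg over 13363 genes, threshold 0.05) in R 4.3.3. DESeq2 1.42.0 and limma 3.58.1 (voom) were alternatives. Standard errors were derived from the F statistic. Differences are day 14 over day 4. Exact permutation tests used scipy 1.17.1 on log2 ratios of CPM + 0.5. Gene positions came from RefSeq (GRCm38.p6), by symbol for 17103 genes, by an older name for 1098 and for 102 not at all. Scripts were tested on simulated data. Every same-day pair of libraries differed beyond sampling noise (chi-square over its degrees of freedom 11.1 to 75.3), and all were kept as separate samples.

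Members and lists were chosen with earlier results of these data known. Named are all members, the 3 lowest p and the most abundant gene of each pathway list, the 2 most abundant of the marker lists that are described, and the 3 genes nearest in pattern. Cd200r3, Sirpb1a, Ptpn6, Adam10, Adam17, Rab37, Kit, Cpa3, Mcpt4, and the single sort, neutrophil, T and NK cell markers were named after their values were seen. Some of the genes found this way are left out.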

Additional observations from a re-analysis of the deposited data

Results flagged for a closer look

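The levels of the 10 genes were screened in each day, 20 groups in all, for a library whose gap to its nearest neighbour was too large a share of the range by Dixon's 95% limit, which chance alone exceeds in about 1 of 20 groups. In 5 of the 20 groups a library stood out. The groups share the same libraries and are not independent, so this count is not read against that rate. Trem1 was at 339 CPM in day 14 replicate 3, where the next library of that day was at 99.6 CPM, and at 417 CPM in day 4 replicate 1, where the next was at 202 CPM. Cd300lf was at 73.9 CPM in day 14 replicate 3 (next 39.5 CPM) and at 105 CPM in day 4 replicate 1 (next 64.0 CPM). Trem3 was at 9.31 CPM in day 14 replicate 3 (next 3.35 CPM). All 5 came from the same pair of libraries, which also held the highest S100a9 of their days, at 821 CPM in day 14 replicate 3 and 907 CPM in day 4 replicate 1.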

How the results depend on the processing

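Trem2 and Cd300lb kept direction and call in all 21 alternatives run for them. Treml4 lost its call in the 6 libraries with the fewest counts, and Tyrobp in 10 alternatives. Trem1 and Trem3 gained a call in 2 alternatives and Cd300lf in 3. With the 6 libraries with the fewest counts, 2 members were called (1 lower), 1334 genes in all (668 higher and 666 lower) and 18 genes of the pathway lists, against 4, 3407 and 37 with all 9; fewer samples were then tested. Upper-quartile scaling called 1089 genes lower, and 65.5% of its calls were higher, against 50.3% with TMM. Leaving out 1 library at a time gave 3 to 7 members called, 2 to 6 lower, with 2399 to 3918 genes in all. It gave 0 to 5 ratios passing, 0 in 8 of the 9 omissions. Leaving out day 4 replicate 1 and day 14 replicate 3 together, an alternative chosen after seeing the data, called 8 members (6 lower and 2 higher), and 0 ratios. The smallest p of the permutation test, before adjustment over the 6 pairs, is 0.0286 or 0.0357 with 1 library out and 0.0571 with these 2 out. With these 2 out no ratio could pass. Hcst changed sign with limma-voom (-0.01), without a low-count filter (-0.02), at a filter of at least 5 CPM in 4 libraries (0.00), in 6 of the single-library omissions (which gave -0.09 to 0.09) and without both outlying libraries (-0.13). Of the other genes, Cd300lh went to -0.07 with library size as a covariate, -0.04 with the 6 libraries, 0.00 without a filter and -0.07 to 0.15 with libraries left out, and Treml1 to 0.00 with limma-voom, -0.17 without both outlying libraries and at most 0.24 with 1 library left out. Trem3 was not tested at the filter of 5 CPM. No paired analysis was possible because the labels give no replicate numbers that the days share. Depth limits Hcst and Trem3, at 27 to 303 counts per library, and Treml4 at day 14, at 54 to 195 counts per library.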
